A study of Mus musculus with 8 samples.

Results

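The 37 genes of the mouse mitochondrial genome were followed in brown adipose tissue (BAT), the heat-producing fat. They were chosen by position alone, as the gene identifiers that the GENCODE M21 annotation of the assembly GRCm38 places on the mitochondrial chromosome, and all 37 were found among the 44674 genes of the deposited tables. The set held 13 mRNA genes, 2 rRNA genes and 22 tRNA genes. In this annotation 28 genes lay on the plus strand, namely 12 mRNA genes, both rRNA genes and 14 tRNA genes. The other 9 lay on the minus strand, namely mt-Nd6 and 8 tRNA genes.

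BAT was sequenced from 4 control mice (labelled CTRL) and 4 Ox1RΔSERT mice (labelled Sert-Ox1R), all male, fed a high-fat diet (HFD) from week 4 to week 18 of age and killed at the end of a hyperinsulinemic-euglycemic clamp, in which insulin is infused and blood glucose is held steady with a glucose infusion. According to the study both groups were Ox1R fl/fl, so the control mice carried the floxed alleles of the orexin receptor Ox1R too, and only the Ox1RΔSERT mice also carried Sert-Cre, a Cre recombinase driven by the gene of the serotonin transporter. The deletion was thus aimed at serotonergic neurons and not at BAT. The study also saw a Sert-Cre reporter outside the raphe nuclei, in the cingulate cortex and the thalamus. Each library came from 1 mouse, and mice are named here by their tag numbers: 10684, 11253, 11560 and 11563 were control mice, and 11243, 11601, 11613 and 11708 were Ox1RΔSERT mice. Where the 4 values of a group are listed, they follow this order of mice.

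The mitochondrial genome codes only for subunits of the respiratory chain and the ATP synthase and for the rRNAs and tRNAs that its own ribosomes need, and the nucleus codes for everything else in the organelle. Long transcripts run around each strand of the circle and are cut into single RNAs, mostly where tRNAs lie between the other genes, and most of the mRNAs then receive short poly-A tails. Brown adipocytes are packed with mitochondria, in which UCP1 turns the proton gradient into heat.

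The total count per mouse was between 35852708 and 50063339. Hcrtr1, the gene of Ox1R, had between 0 and 5 counts in the 8 libraries of BAT and did not pass the filter on low counts, so that the deletion could not be checked in these data. Slc6a4, the gene of the serotonin transporter, had between 6 and 21 counts and passed that filter. Ucp1 was high in all 8 mice, with normalized values (CPM after TMM scaling) between 2513 and 4894. In Ox1RΔSERT mice 11601, 11613 and 11708 it was 2513, 2903 and 2513, below the lowest control mouse at 3731. In mouse 11243 it lay within the range of the control mice. Ox1RΔSERT mice 11601 and 11708 stood apart. The summed normalized value of 10 leukocyte markers was 766 and 599 in these 2 mice and between 89.8 and 209 in the other 6, and that of 6 fibroblast and matrix markers was 6419 and 3059 against 429 to 1161. The summed value of 12 skeletal muscle markers was 2120 in control mouse 11253 and 2937 in Ox1RΔSERT mouse 11708, and 2.86 to 238 in the other 6. The main differences between the groups are therefore also given without mice 11601 and 11708.

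How tightly the genome is packed bears on how its reads can be assigned, and the 3 places where mRNA genes share more than a single base are therefore shown first. The ends of mt-Atp6 and mt-Co3 also share 1 base, at chrM:8607. mt-Atp8 and mt-Atp6, which code for 2 subunits of the ATP synthase, share 43 bases at chrM:7927-7969. mt-Nd4l and mt-Nd4, which code for 2 subunits of complex I, share 7 bases at chrM:10167-10173. The ends of mt-Nd5 and mt-Nd6, which lie on opposite strands, share 14 bases at chrM:13552-13565. The shared bases are in capitals below, with 12 bases on either side, all on the plus strand of GRCm38 as taken from the GENCODE M21 transcripts.
mt-Atp8/mt-Atp6: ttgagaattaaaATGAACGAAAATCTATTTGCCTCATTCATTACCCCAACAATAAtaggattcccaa
mt-Nd4l/mt-Nd4: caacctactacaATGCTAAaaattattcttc
mt-Nd5/mt-Nd6: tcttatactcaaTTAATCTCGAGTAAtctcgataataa
A read that falls wholly within such a stretch fits both genes. In the first pair the capitals begin with the ATG of mt-Atp6 and end with the TAA stop codon of mt-Atp8, and in the next pair they begin with the ATG of mt-Nd4 and end with the TAA of mt-Nd4l. In the last pair they end with the TAA of mt-Nd5.

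The ends of the coding sequences show why the poly-A tail matters for this genome. Of the 13 mRNA genes, 10 ended in a complete stop codon, which was TAA in 8 genes and TAG in 2, and 3 ended in a single T that polyadenylation is known to complete to TAA. The last 21 bases of these 3 genes and of mt-Nd5, the gene with the largest difference between the groups, read as follows, with the bases of the stop in capitals.
mt-Co3: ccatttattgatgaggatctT
mt-Nd4: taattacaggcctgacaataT
mt-Cytb: aaatactaaaattatatccaT
mt-Nd5: tactcaattaatctcgagTAA
The libraries were made from poly-A selected RNA, so only RNAs that carried a tail were captured by design, and rRNAs and tRNAs, which carry a very short tail or none, were measured only as far as they were carried along. How much of each mRNA carried a tail, that of mt-Nd6 included, was not measured, so a low count need not mean low abundance.

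The 13 mRNAs made up most of what was sequenced from the mitochondrial genome. Together they took 39.1%, 44.7%, 39.5% and 39.5% of all counts in the control mice 10684, 11253, 11560 and 11563, and 42.2%, 31.8%, 32.0% and 34.9% in Ox1RΔSERT mice 11243, 11601, 11613 and 11708. The mean was 40.7% ± 2.65 (SD, n = 4) in control mice and 35.2% ± 4.87 (SD, n = 4) in Ox1RΔSERT mice. The groups overlapped, because mouse 11243 lay among the control mice while the other 3 Ox1RΔSERT mice lay below all of them. In a bulk sample, fewer cells rich in mitochondria and less mitochondrial RNA per cell cannot be told apart.

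The 2 rRNAs took between 0.851% and 3.16% of the counts, and the 22 tRNAs between 0.00203% and 0.00342%. Control mouse 10684 had the lowest share in both classes. For the rRNAs the mean was 2.21% ± 0.989 (SD, n = 4) in control mice and 1.88% ± 0.452 (SD, n = 4) in Ox1RΔSERT mice, and for the tRNAs it was 0.00275% ± 0.000723 and 0.00265% ± 0.000466 (SD, n = 4 each). Genes of the minus strand took 0.0241% to 0.0445% of the counts, nearly all of it on mt-Nd6, against 33.6% to 46.8% for the plus strand. After poly-A selection these shares need not follow the abundance of RNA from either strand.

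**Figure D1:**
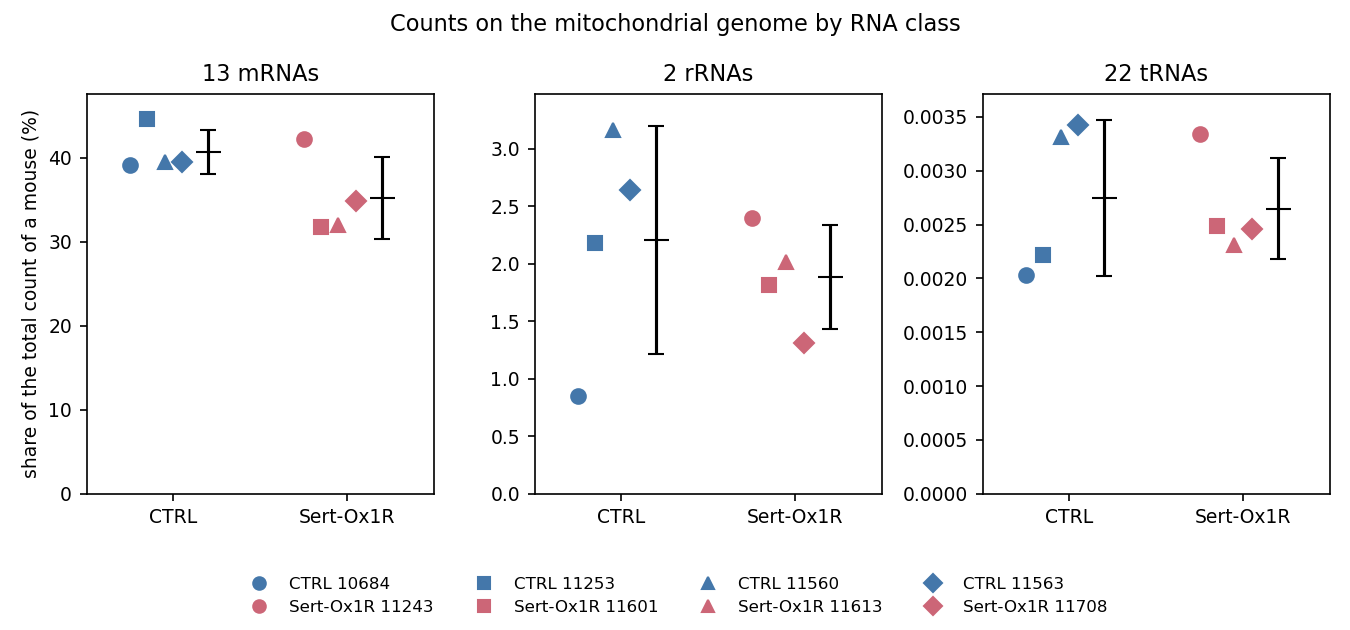
Share of the total count of each mouse, in %, that fell on the 13 mRNAs, the 2 rRNAs and the 22 tRNAs of the mitochondrial genome, each panel with its own axis from 0. Points are mice, the bar beside them is the mean ± SD of 4 mice, and for the mRNAs Ox1RΔSERT mouse 11243 lies at 42.2% while the other 3 lie between 31.8% and 34.9%.

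Levels of different genes were compared per length, first as the deposited TPM values, which were scaled by the length that Salmon estimated to be available to reads. On this scale mt-Atp8 was the highest, at 144100 ± 12820 TPM (SD over 8 mice), followed by mt-Atp6 at 90780 ± 5950, mt-Co2 at 80370 ± 5626, mt-Co1 at 54750 ± 2852 and mt-Co3 at 53520 ± 4208. mt-Co1 and mt-Co3 overlapped, and mt-Co3 was the lower in 5 of 8 mice. Below them came mt-Cytb at 39790 ± 2258, then the complex I genes mt-Nd4l, mt-Nd4, mt-Nd2, mt-Nd1 and mt-Nd3 between 29710 and 18300, the rRNA genes mt-Rnr1 and mt-Rnr2 at 9128 ± 3334 and 9078 ± 2962, mt-Nd5 at 7890 ± 1127, and mt-Nd6 at 1151 ± 148. mt-Nd4l and mt-Nd4 did not differ beyond their spread, nor did the 2 rRNAs, of which mt-Rnr2 was the lower in 4 of 8 mice.

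The order of the shortest genes depended on the length that was used. With CPM divided by the annotated length in kb, mt-Atp8, 204 bases long, had rank 5 at 49880 ± 6353, behind mt-Atp6 at 74780 ± 9969, mt-Co2 at 69850 ± 9771, mt-Co1 at 54800 ± 5254 and mt-Co3 at 50850 ± 6609 (SD over 8 mice). mt-Atp8 was below mt-Co3 in 5 of 8 mice on this scale. mt-Nd4l, 297 bases long, moved from rank 7 in TPM to rank 10, at 15110 ± 1810. mt-Nd6, at 688 ± 147, was last on both scales and below every other mRNA and both rRNAs in all 8 mice. All these levels are of RNA captured by poly-A selection.

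The pairs mt-Atp8/mt-Atp6 and mt-Nd4l/mt-Nd4 kept nearly the same ratio in all mice, but a steady ratio was not limited to pairs that share bases. The count of mt-Atp8 was 0.189 to 0.217 of that of mt-Atp6, a spread of 1.14-fold over the 8 mice, and the count of mt-Nd4l was 0.126 to 0.149 of that of mt-Nd4, a spread of 1.18-fold. The highest value of the second pair was in control mouse 10684, against 0.1295 to 0.1318 in the other control mice. In the control mice alone the spreads of these pairs were 1.13-fold and 1.15-fold. The ratio of mt-Nd5 to mt-Cytb, which share no base, spread 1.08-fold in those mice and 1.42-fold over all 8. For mt-Atp6 and mt-Co3, which share 1 base, the ratio of counts ran from 1.10 to 1.48, a spread of 1.34-fold, with mice 11613 and 11708 the lowest. mt-Ti and mt-Tw, which share 2 bases each with mt-Nd1 and mt-Nd2, had spreads of 3.21-fold and 1.93-fold in their ratio to these mRNAs. The count of mt-Rnr1, the small ribosomal RNA, was 0.463 to 0.578 of that of mt-Rnr2, the large one. By contrast, the count of mt-Rnr2 ranged from 0.0718 to 0.235 of that of mt-Co1, a spread of 3.28-fold, with control mice 10684 and 11560 at the ends. The groups overlapped in each of these ratios.

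The question of the main comparison was whether the members differed between BAT of Ox1RΔSERT mice and control mice. After TMM scaling all 13 mRNAs had a lower fitted mean in Ox1RΔSERT mice, with log2 fold changes between -0.66 and -0.28 and a median of -0.44, against a median of 0.0021 over all 14489 genes tested, though on the log2(TPM + 1) scale mt-Co1 and mt-Co3 turned to 0.011 and 0.022, where the median of all genes was 0.23, and relative to mitochondrial mRNA mt-Co1, mt-Co3 and mt-Nd3 lay above 0. edgeR's quasi-likelihood test with Benjamini-Hochberg adjustment called 0 of the 22 members it tested, the 13 mRNAs, both rRNAs and 7 tRNAs, as it called 0 of all genes (0.0%). The adjusted p-values of the 13 mRNAs in edgeR were between 0.316 and 0.615. At an unadjusted p under 0.05 in edgeR 2 members were lower, mt-Nd5 and mt-Nd4l, and 4.96% of all genes tested were. limma voom called 0 members at an adjusted p under 0.05, and DESeq2 called 1, mt-Nd5, where it called 0.212% of all genes as lower.

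In every one of the 13 mRNAs, mice 11601, 11613 and 11708 lay below all 4 control mice. Over all genes tested, 12.1% had at least 3 of the 4 Ox1RΔSERT mice below every control mouse. The remaining mouse, 11243, lay above the mean of the control mice in 10 of the 13 mRNAs. The groups did not overlap in 1 member, mt-Nd5, and in 2.81% of all genes tested the Ox1RΔSERT mice lay wholly below. Without mice 11601 and 11708 the median log2 fold change of the 13 mRNAs was -0.23, and without mouse 11243 it was -0.66. The count of members that DESeq2 called rose from 1 to 13 without mouse 11243, where the share of all genes that DESeq2 called as lower also rose, from 0.212% to 2.06%, and was 0 when any other single mouse was left out.

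**Figure D2:**
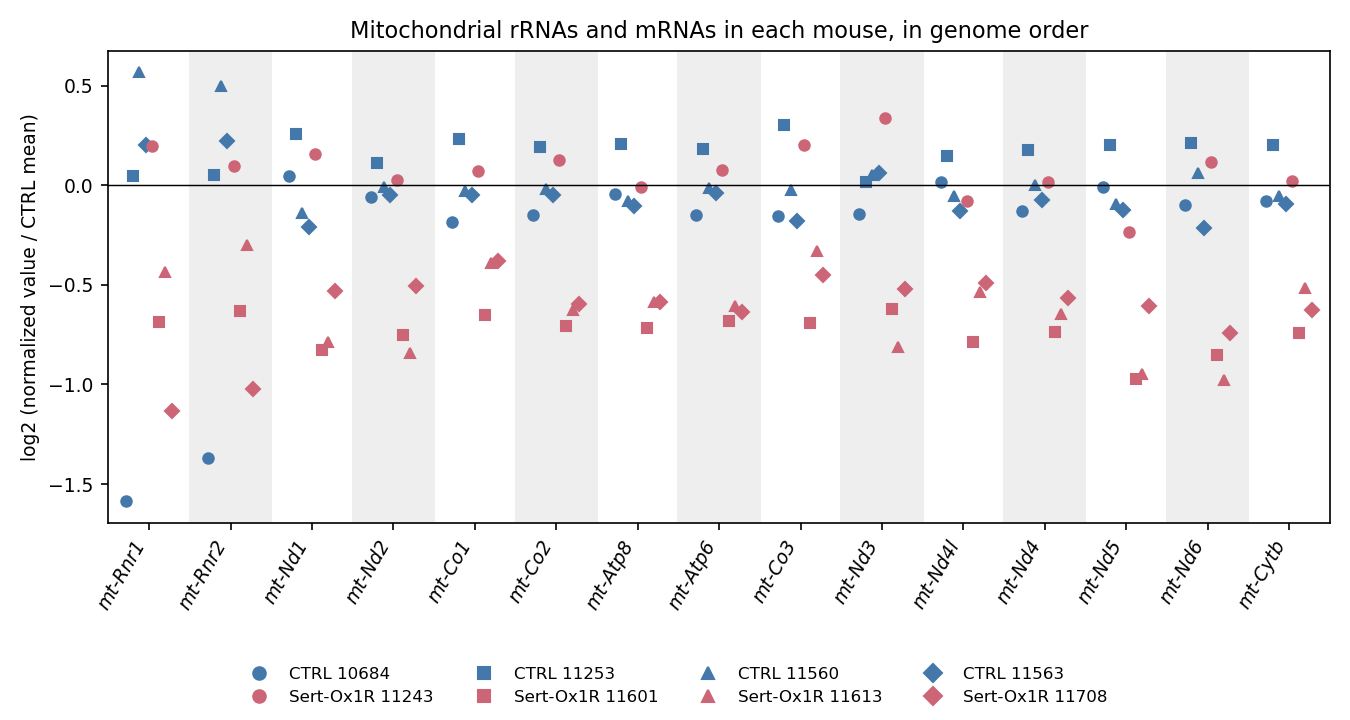
Normalized value of each mitochondrial rRNA and mRNA in each mouse, as the log2 ratio to the mean of the 4 control mice, in the order of the genes along the genome. Mice 11601, 11613 and 11708 lie below all control mice in all 13 mRNAs, mouse 11243 lies below them only in mt-Nd5, and control mouse 10684 is the lowest of the 8 in both rRNAs.

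mt-Nd5 codes for a large membrane subunit of complex I at the far end of its proton-pumping arm, and its gene lies at chrM:11742-13565. Its normalized value was 17730, 20510, 16750 and 16400 across the 4 control mice, and 15170, 9111, 9265 and 11720 in Ox1RΔSERT mice 11243, 11601, 11613 and 11708. All Ox1RΔSERT mice were thus below all control mice, with mouse 11243 the nearest to them. The log2 fold change was -0.66 ± 0.22 (SE), a change of -36.6%, and the adjusted p was 0.316 by edgeR and 0.0372 by DESeq2. The exact permutation test over the 70 assignments of the 8 mice, two-sided and unadjusted, gave p = 0.0286, the smallest value it can give. Groups that do not overlap always give this value, so it adds nothing to their separation. Of 14489 genes tested, 407 lay wholly lower in Ox1RΔSERT mice and 390 wholly higher. Without mice 11601 and 11708 the log2 fold change was -0.54, with an adjusted p of 0.996 in edgeR and 1.0 in DESeq2.

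The other complex I mRNAs followed with smaller differences. mt-Nd4l, at chrM:9877-10173, was at a normalized value of 5326, 5835, 5075 and 4815 across the 4 control mice and of 4976, 3056, 3635 and 3746 in mice 11243, 11601, 11613 and 11708. Mouse 11243 lay within the range of the control mice and the other 3 below it. Its log2 fold change was -0.45 ± 0.18 (SE), with an adjusted p of 0.317 in edgeR. Fold changes of mt-Nd1, mt-Nd2 and mt-Nd4 were -0.44 ± 0.27, -0.48 ± 0.24 and -0.45 ± 0.24 on the log2 scale (SE), with adjusted p-values in edgeR of 0.437, 0.363 and 0.380. mt-Nd3, whose reads are shared with a nuclear copy described further on, had -0.33 ± 0.25.

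mt-Nd6, the only mRNA gene of the minus strand, codes for a membrane subunit of complex I and lies at chrM:13552-14070. Its normalized value was 406, 503, 453 and 374 across the 4 control mice, and 470, 241, 220 and 260 in mice 11243, 11601, 11613 and 11708. As on the plus strand, 3 mice were low and mouse 11243 lay among the control mice. The log2 fold change was -0.54 ± 0.24 (SE), with an adjusted p of 0.331 in edgeR. The libraries were stranded, but whether the counting used the strand is not given in the sources used here. Reads of mt-Nd6 and reads of plus-strand RNA across the same bases can therefore not be told apart.

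In complex III, mt-Cytb, which codes for cytochrome b, the only subunit of this complex encoded in mitochondria, had a log2 fold change of -0.43 ± 0.25 (SE) and an adjusted p of 0.408 in edgeR. Control mouse 11253 had the highest value of mt-Cytb, 60720, against 49420 to 50810 in the other control mice. Ox1RΔSERT mouse 11243 followed at 53430, and the other 3 had 31510 to 36830.

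Complex IV, cytochrome c oxidase, holds its catalytic core in mt-Co1, mt-Co2 and mt-Co3. mt-Co1 was the member with the most counts, 3071520 to 4574042 per mouse. Its normalized value was 83710, 111800, 93250 and 91870 across the 4 control mice, and 99880, 60580, 72560 and 73080 in mice 11243, 11601, 11613 and 11708. Again 3 of the 4 Ox1RΔSERT mice were below the control mice. Log2 fold changes were -0.31 ± 0.27 for mt-Co1, -0.41 ± 0.26 for mt-Co2 and -0.28 ± 0.26 for mt-Co3 (SE), with adjusted p-values in edgeR between 0.461 and 0.615.

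For the ATP synthase, complex V, the 2 subunits of its membrane part encoded in mitochondria had similar fold changes. The log2 fold change was -0.45 ± 0.20 for mt-Atp8 and -0.42 ± 0.26 for mt-Atp6 (SE), with adjusted p-values in edgeR of 0.337 and 0.435. mt-Atp6 lay between 53530 and 67480 (normalized value) in control mice and at 62760, 37050, 39030 and 38230 in mice 11243, 11601, 11613 and 11708. Mouse 11243 was higher than 3 of the 4 control mice.

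Because most of these differences ran in parallel, each mRNA was also taken as a share of the counts of all 13. mt-Nd5 took 4.38%, 4.04%, 3.90% and 3.95% of them across the 4 control mice, and 3.29%, 3.41%, 3.10% and 3.85% in mice 11243, 11601, 11613 and 11708. It was the only one of the 13 mRNAs whose groups did not overlap on this scale, although mouse 11708 came within 0.058 percentage points of the lowest control mouse. How many of all genes would not overlap when divided by the same sum was not counted. In edgeR with the summed counts of the 13 mRNAs as library size, which asks how each gene differed from mitochondrial mRNA as a whole, the log2 fold change of mt-Nd5 was -0.25 ± 0.12 (SE), with an adjusted p of 0.162. The other 12 mRNAs were between -0.17 and 0.12 on this scale, and the median of all genes was at 0.45. This fit called 0 of the 22 members and 0.0% of all genes at an adjusted p under 0.05. At an unadjusted p under 0.05 it called 0 members and 31.3% of all genes, since most genes were shifted upward by this scaling. Each mRNA is itself part of the sum it was divided by.

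By complex, the 3 mRNAs of complex IV took 42.9%, 45.3%, 44.7% and 44.5% of mitochondrial mRNA counts across the 4 control mice, and 45.8%, 45.7%, 48.2% and 46.7% in mice 11243, 11601, 11613 and 11708. Here all Ox1RΔSERT mice lay above all control mice, by 0.34 percentage points at the nearest. The 7 mRNAs of complex I took 26.7% to 28.7% in control mice and 23.7% to 27.0% in Ox1RΔSERT mice, the mRNA of complex III 11.8% to 12.3% and 11.2% to 12.3%, and the 2 of complex V 16.0% to 16.6% and 15.2% to 16.6%. Those ranges overlapped. As shares of 1 whole, these 4 values cannot move independently. The separation of complex IV depended on the whole that was used. As a share of all mitochondrial counts, rRNAs included, it was 41.38% to 43.22% in control mice and 43.21% to 45.37% in Ox1RΔSERT mice, so the groups overlapped. They also overlapped as a share of all counts. How often other sets of genes separate on these scales was not counted.

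**Figure D3:**
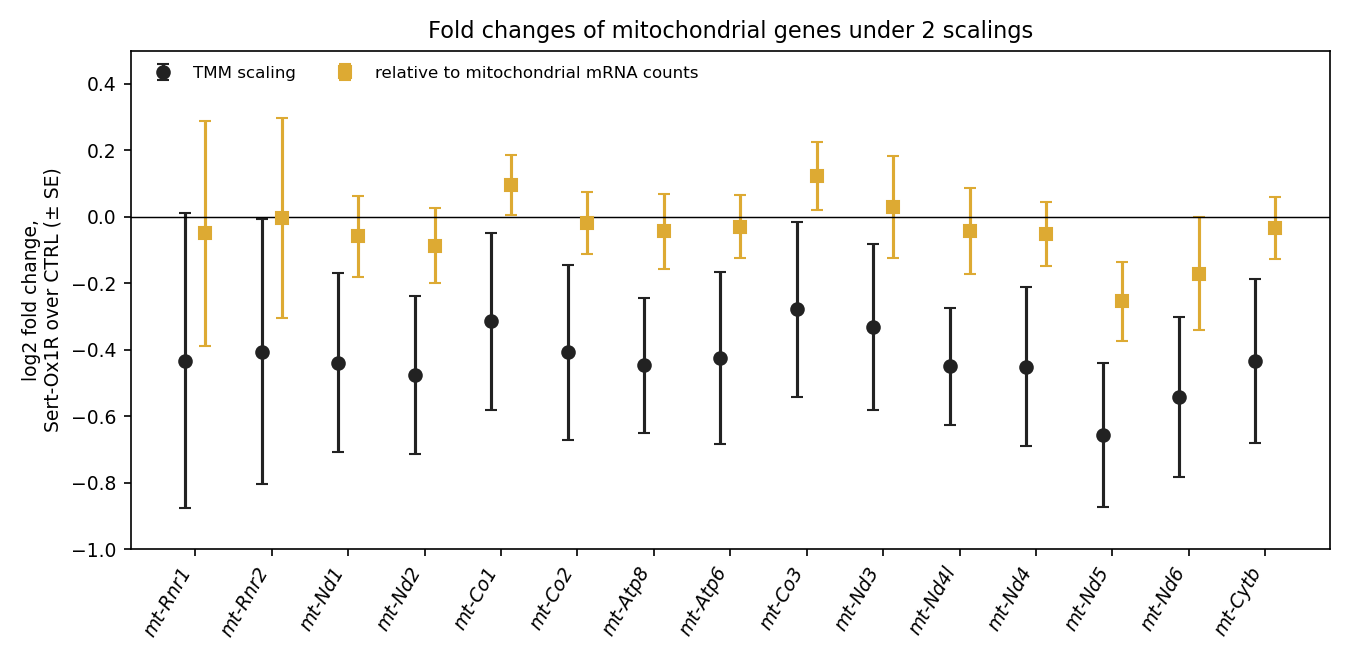
Log2 fold change (Ox1RΔSERT, labelled Sert-Ox1R, over CTRL, 4 mice each) with its SE for both rRNAs and all 13 mRNAs, after TMM scaling (black circles) and with the summed counts of the 13 mRNAs as library size (yellow squares). After TMM scaling all 15 lie between -0.66 and -0.28, although mt-Co1, mt-Co3 and both rRNAs lay above 0 on the log2(TPM + 1) scale, and relative to mitochondrial mRNA they lie between -0.25 and 0.12, with mt-Nd5 the lowest.

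The rRNA genes mt-Rnr1, at chrM:70-1024, and mt-Rnr2, at chrM:1094-2675, varied widely within both groups. The normalized value of mt-Rnr2 was 6011, 16110, 21940 and 18100 across the 4 control mice, and 16610, 10030, 12620 and 7659 in mice 11243, 11601, 11613 and 11708. The lowest and the highest value were both from control mice. mt-Rnr1 was 2785, 8631, 12390 and 9633 in the same control mice and 9599, 5189, 6173 and 3808 in the same Ox1RΔSERT mice. Log2 fold changes were -0.43 ± 0.44 and -0.41 ± 0.40 (SE) for mt-Rnr1 and mt-Rnr2, with adjusted p-values of 0.643 and 0.628 in edgeR, and in limma on log2(TPM + 1) they turned to 0.0065 and 0.032. In mouse 10684 the rRNAs were low while the mRNAs were near those of the other control mice.

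The 22 tRNA genes had 796 to 1711 counts in a mouse, all together. Of these, 7 passed the filter on low counts, with 93 to 4568 counts over the 8 mice, and the other 15 had 1 to 80. mt-Tl1, for leucine, had the most, 359 to 826 counts in a mouse, followed by mt-Ti, for isoleucine, with 95 to 323, and mt-Tm, for methionine, with 82 to 237. These 3 genes lie on the plus strand, mt-Tl1 between mt-Rnr2 and mt-Nd1 and the other 2 between mt-Nd1 and mt-Nd2. They are shown for that position, at chrM:2676-2750, chrM:3706-3774 and chrM:3845-3913, as taken from the GENCODE M21 transcripts of GRCm38, with the anticodon in capitals.
mt-Tl1: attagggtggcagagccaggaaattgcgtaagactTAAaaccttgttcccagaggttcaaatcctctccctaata
mt-Ti: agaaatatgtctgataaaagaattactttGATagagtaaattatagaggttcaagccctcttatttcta
mt-Tm: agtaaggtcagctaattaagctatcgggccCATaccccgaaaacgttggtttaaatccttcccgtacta
The first base of mt-Tl1 follows directly on the last base of mt-Rnr2, and mt-Nd1 begins on the base after mt-Tl1. The deposited counts do not show whether a read came from the processed tRNA or from RNA that also held its neighbours.

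The normalized value of mt-Tl1 stood at 9.39, 12.8, 16.9 and 17.3 across the 4 control mice, and at 18.0, 9.25, 10.4 and 9.79 in mice 11243, 11601, 11613 and 11708. Control mouse 10684 was as low as the low Ox1RΔSERT mice, as it was for the rRNAs. The 7 tRNAs that passed the filter had log2 fold changes between -0.53 and -0.0079 with SE of 0.27 to 0.36 and adjusted p-values of 0.472 to 0.995 in edgeR. The lowest was mt-Tn, for asparagine, which had only 7 to 24 counts in a mouse. Relative to mitochondrial mRNA, 5 of the 7, mt-Tl1, mt-Ti and the genes for tryptophan, serine and glutamate tRNAs, mt-Tw, mt-Ts1 and mt-Te, had a positive log2 fold change, of 0.12 to 0.45, and 0 of them passed the adjusted threshold in edgeR. With these SE a difference of the size seen for the mRNAs could not be told from 0.

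Some counts of the mitochondrial genes may sit on nuclear genes, because stretches of the mitochondrial genome have been copied into the nucleus. By alignment of the GENCODE M21 transcripts, 16 nuclear pseudogenes matched a mitochondrial gene at 90% identity or more over at least 100 bases. Together they took 1.31% to 1.92% of all counts. Gm29216, at chr1:24615706-24616197 of GRCm38, matched mt-Co1 over 483 bases at 99.8% identity and had a mean of 590076 counts per mouse, 15.9% of the mean of mt-Co1. Gm28438, at chr1:24612775-24613119, matched mt-Nd3 over 345 bases at 99.7% identity and had a mean of 89351, 59.7% of the mean of mt-Nd3. Each of the 2 differed from its mitochondrial gene by 1 base in the aligned stretch, A1066T for mt-Co1 and Gm29216 and T3C for mt-Nd3 and Gm28438, counted from 1 at the start of the mitochondrial gene and with the mitochondrial base first. The 31 bases that hold the difference are shown for each pair with that base in capitals.
mt-Co1: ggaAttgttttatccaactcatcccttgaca
Gm29216: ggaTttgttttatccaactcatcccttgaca
mt-Nd3: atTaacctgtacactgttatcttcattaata
Gm28438: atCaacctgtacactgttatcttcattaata
Reads that lie within the aligned stretch and do not cover that base fit both genes equally, and these counts are therefore uncertain. For mt-Co1 that stretch covers only bases 1063 to 1545 of the gene.

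The split between a gene and its copy varied among mice. Of the summed count of mt-Nd3 and Gm28438, the copy held 41.7%, 49.3%, 35.5% and 35.0% across the 4 control mice, and 34.1%, 36.1%, 35.3% and 32.5% in mice 11243, 11601, 11613 and 11708. Mice 10684 and 11253 thus stood above the other 6. For mt-Co1 and Gm29216 the copy held 11.1% to 17.6%, with Ox1RΔSERT mouse 11613 the highest. Gm28437, identical to mt-Co3 over 783 bases, held 0.361% to 3.59% of the summed count, a 9.93-fold spread, and Gm28661, identical to mt-Co2 over 681 bases, held 0.0339% to 0.738%, a 21.8-fold spread. The same 3 mice, 10684, 11253 and 11613, had the highest shares of both Gm28437 and Gm28661. Gm13340, 97.6% identical to mt-Co1 over 1545 bases, had 331 to 509 counts in a mouse and took no more than 0.0140% of the sum.

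With the counts of the copies added to the mitochondrial genes they matched best, the log2 fold change of mt-Nd3 went from -0.33 to -0.48 ± 0.26 (SE), with an adjusted p of 0.382 in edgeR. Its summed value was 5946, 7661, 6169 and 6158 across the 4 control mice, and 7343, 3893, 3373 and 3959 in mice 11243, 11601, 11613 and 11708. As a single row Gm28438 had a log2 fold change of -0.73 with an adjusted p of 0.317 in edgeR. mt-Co1 went from -0.31 to -0.29, and the other mRNAs moved by less. mt-Nd5 had no copy with more than a few counts and stayed at -0.66.

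**Figure D4:**
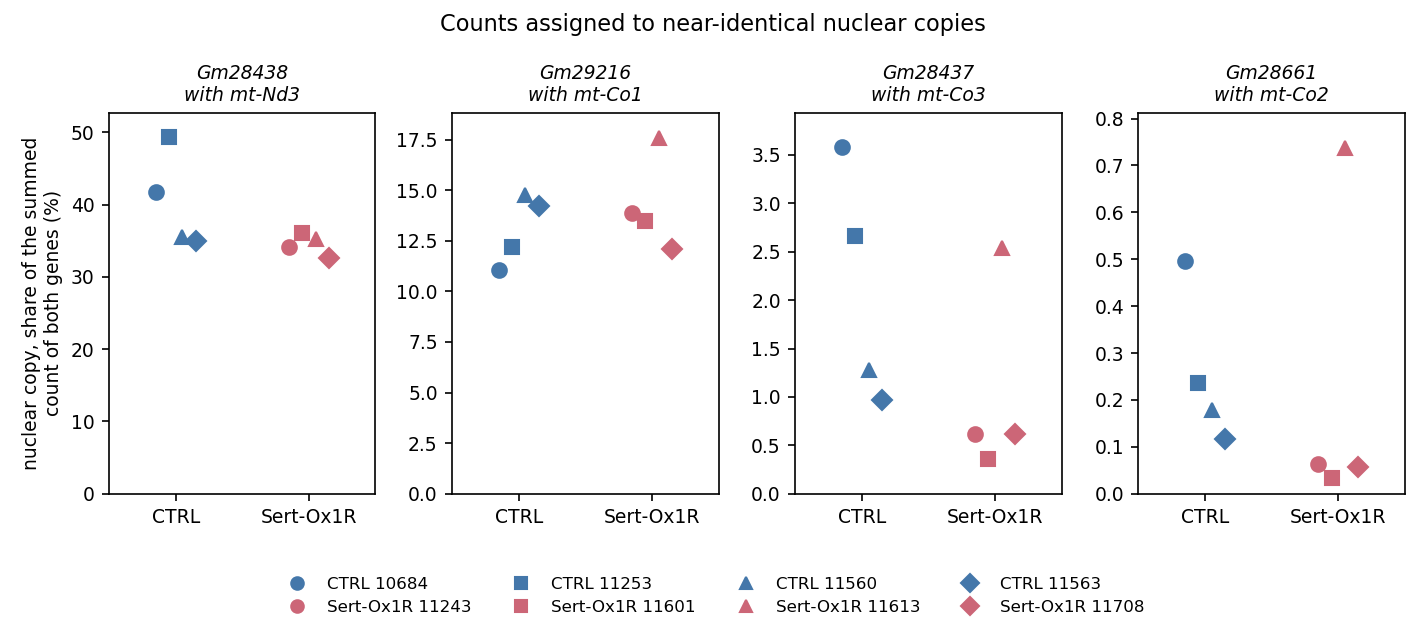
Share of the summed count of a mitochondrial gene and its near-identical nuclear copy, in %, that was assigned to the copy in each mouse, for the 4 copies with the most counts, each panel with its own axis from 0. The shares of Gm28437 and Gm28661 are highest in mice 10684, 11253 and 11613, and that of Gm28661 runs from 0.0339% to 0.738%.

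Respiratory complexes are built from subunits of both genomes, so the nuclear subunit genes were set beside the members. All 36 nuclear complex I genes tested had a negative log2 fold change, with a median of -0.29, and 12 of them were lower at an unadjusted p under 0.05 in edgeR, among them Ndufb2 at -0.43 ± 0.14 (SE) and Ndufa5 at -0.41 ± 0.14 (SE). In complex III all 9 were negative with a median of -0.32, and 3 were lower, among them Uqcrc2 at -0.38 ± 0.14 (SE) and Uqcrb at -0.32 ± 0.13 (SE). In complex IV 13 of 14 were negative with a median of -0.28 and 2 were lower, Cox7c and Cox7a1, the latter also in the list of brown adipocyte markers, and in complex V 14 of 16 were negative with a median of -0.29 and 4 were lower, among them Atp5mpl and Atp5c1. The background at that threshold was 4.96% of all genes, and 7188 of the 14489 genes tested had a negative log2 fold change. All adjusted p-values of these genes in edgeR were at or above 0.316. In a fit for these lists that was added after the values were seen, without mice 11601 and 11708, 1.2% of all genes and 0 genes of the 4 complexes were lower at an unadjusted p under 0.05 in edgeR. The medians in that fit were -0.049 in complex I, -0.037 in complex III, -0.028 in complex IV and -0.067 in complex V. The normalized value of Ndufb2 stood at 105, 106, 105 and 96.9 across the 4 control mice, and at 95.1, 73.3, 81.1 and 57.3 in mice 11243, 11601, 11613 and 11708, so that its groups did not overlap. Of the 36 nuclear complex I genes 7 lay wholly lower in Ox1RΔSERT mice, and 2.81% of all genes tested did.

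Mitochondrial and nuclear subunit mRNAs were then compared mouse by mouse. The summed normalized value of the nuclear subunits of complexes I, III, IV and V was 40650, 39430, 40130 and 38230 across the 4 control mice, and 38960, 27790, 37740 and 26040 in mice 11243, 11601, 11613 and 11708. The summed value of the 13 mitochondrial mRNAs was 404500, 507700, 429200 and 414900 in the same control mice, and 461500, 267300, 298500 and 304800 in the same Ox1RΔSERT mice. Mice 11601, 11613 and 11708 thus lay below all control mice in both sums, but in nuclear subunit mRNA mouse 11613 was close to the lowest control mouse and the other 2 were far below it. The ratio of mitochondrial to nuclear subunit mRNA was 7.91 in mouse 11613, the lowest of the 8, 9.62 in mouse 11601, 11.7 in mouse 11708 and 11.8 in mouse 11243, against 9.95 to 12.9 in control mice. The same mouse had the lowest ratio in each complex, for example 6.87 in complex I against 10.6 to 12.7 in control mice.

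**Figure D5:**
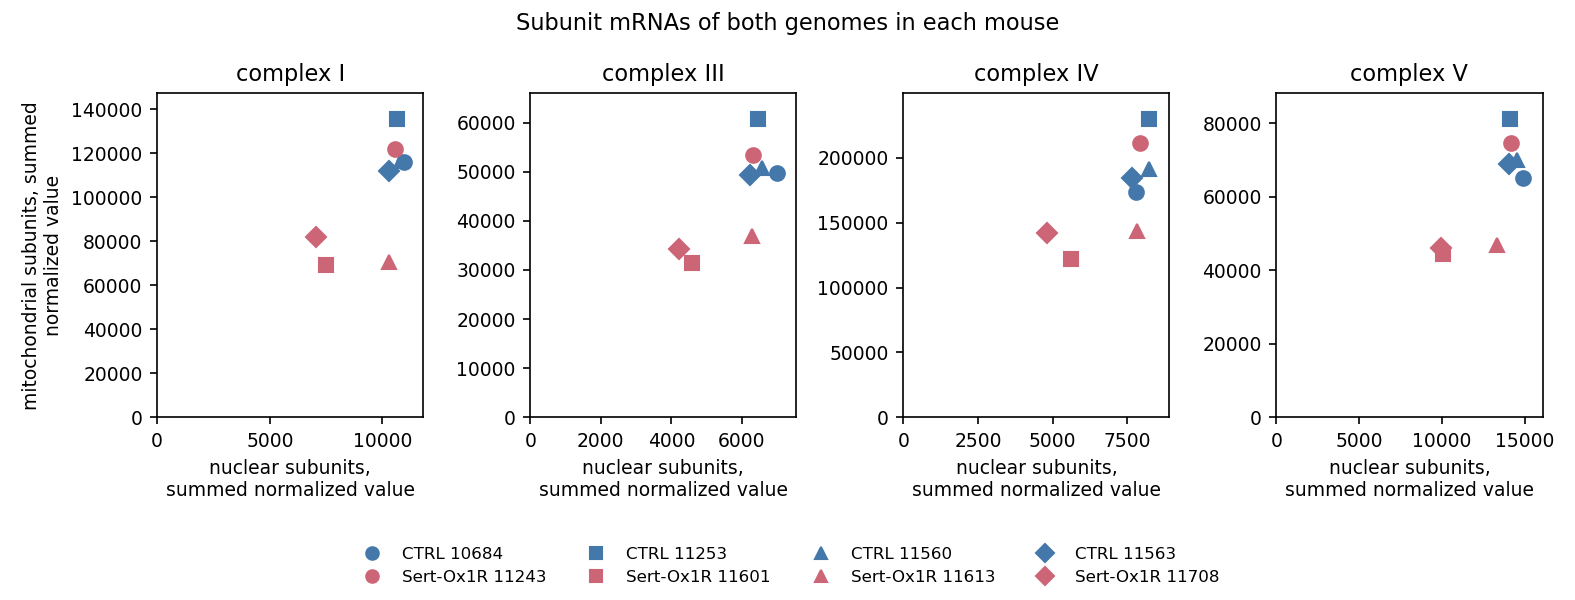
Summed normalized value of the nuclear subunit mRNAs (horizontal axis) and of the mitochondrial subunit mRNAs (vertical axis) of each respiratory complex in each mouse, all axes from 0. Mice 11601 and 11708 lie low on both axes, and mouse 11613 lies below all control mice on the vertical axis, at 70690 for complex I against 111900 to 135600. On the horizontal axis it lies within their range for complexes I, III and IV and below it for complex V, at 13330 against 14080 to 14920.

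Markers of cell types moved with these values in some mice and not in others. Mice 11601 and 11708, in which leukocyte and matrix markers were high, were low in nuclear subunit mRNA. Mouse 11613 had 152 for the summed leukocyte markers and 1134 for the matrix markers, both within the range of the control mice, 89.8 to 209 and 429 to 1161. The summed value of 10 brown adipocyte markers was 13400 to 14710 in control mice and 12760, 9535, 12210 and 8792 in mice 11243, 11601, 11613 and 11708, with all Ox1RΔSERT mice below all control mice. Most of that sum came from Fabp4 and Ucp1, with means of 6408 and 4266 in control mice. Of the 10 markers 1, Elovl3, had groups that did not overlap, where 2.81% of all genes tested lay wholly lower in Ox1RΔSERT mice. All 10 had a negative log2 fold change, and 4 were lower at an unadjusted p under 0.05 in edgeR, against 4.96% of all genes. Ucp1 was at -0.54 ± 0.18 (SE), with an adjusted p of 0.316 in edgeR and 0.0884 in DESeq2. DESeq2 called 1 of the 10, Elovl3. Without mice 11601 and 11708, 8 were negative and 1 was lower at that threshold, against 1.2% of all genes. In mouse 11613 Cidea at 1414 and Plin1 at 541 lay above all control mice. Ucp1 at 2903, Fabp4 at 5713, Cox7a1 at 391 and Elovl3 at 67.9 lay below all of them in this mouse. The remaining markers of the list lay within the range of the control mice there. Endothelial markers summed to 242 to 361 in control mice and 252 to 354 in Ox1RΔSERT mice, and those of Schwann cells and nerve to 85.3 to 130 and 87.8 to 118. Control mouse 11253, in which the skeletal muscle markers summed to 2120, had the highest share of mitochondrial mRNA, and Ox1RΔSERT mouse 11708, in which they summed to 2937, had one of the low shares. The part of the cell types in the differences of the mitochondrial genes was not tested.

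Nuclear genes that copy, transcribe and process the mitochondrial genome were taken from lists by role. Over all 14489 genes tested, 7188 had a negative log2 fold change and 4.96% were lower at an unadjusted p under 0.05 in edgeR. Among 15 genes of mtDNA maintenance and the nucleoid, 9 were negative and 2 were lower at that threshold. These were Tfam, which packages mtDNA and starts its transcription, at -0.25 ± 0.087 (SE), and Ssbp1, the single-strand binding protein of mtDNA replication, at -0.27 ± 0.085 (SE). Tfam was 35.0, 32.9, 32.2 and 34.4 across the 4 control mice, and 31.1, 25.8, 30.0 and 26.5 in mice 11243, 11601, 11613 and 11708. Its groups did not overlap, though the gap between the nearest mice was narrower than the SD of the control mice, 1.29. In this list 2 genes lay wholly lower in Ox1RΔSERT mice, Tfam and Ssbp1, and 1 lay wholly higher, Rnaseh1. In the transcription list that follows, 0 lay wholly lower and 1, Nrf1, wholly higher. Rnaseh1 and Nrf1 are named only because their groups did not overlap. Over all genes tested, 2.81% lay wholly lower in Ox1RΔSERT mice, and 390 of 14489 lay wholly higher. Among 15 genes of mitochondrial transcription and its regulators, Mterf3, a transcription terminator family member, and Gabpa, a nuclear regulator of respiratory genes, were lower at -0.31 and -0.32. Pprc1, a co-activator related to PGC-1α, was higher at 0.53 ± 0.16 (SE), where 10.2% of all genes tested were higher at an unadjusted p under 0.05. Polrmt, the mitochondrial RNA polymerase, was at 0.0089 ± 0.11 (SE), chosen for mention after its value was seen.

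For the lists that follow, the background was again 7188 negative genes of 14489 tested, and 4.96% lower at an unadjusted p under 0.05 in edgeR. Of 19 genes of mitochondrial mRNA stability, polyadenylation and decay, 18 had a negative fold change, the median was -0.21, and 6 were lower at that threshold, with Fastkd5 at -0.50 ± 0.16 (SE) and Fastkd2 at -0.33 ± 0.11 (SE) the lowest in p. Both belong to the FASTK family of mitochondrial RNA-binding proteins, and Fastkd5 is needed to process mRNA ends that have no tRNA beside them. Of 4 genes of tRNA excision and CCA addition all were negative, and Trmt10c, a subunit of the mitochondrial RNase P, was lower at -0.31 ± 0.12 (SE). In the list of 24 genes for the modification of mitochondrial tRNAs and rRNAs 17 were negative and 3 were lower, with Nsun3 at -0.37 ± 0.11 (SE) and Mrm2 at -0.37 ± 0.14 (SE). For the 22 mitochondrial aminoacyl-tRNA synthetases and related genes 21 were negative, with a median of -0.18, and 2 were lower, Yars2 at -0.27 and Gatc at -0.26. The adjusted p-values of all genes of these lists were at or above 0.316 in edgeR, and DESeq2 called 0 of them at an adjusted p under 0.05. In the added fit without mice 11601 and 11708 edgeR found 0 genes of these lists lower at an unadjusted p under 0.05 and 2 higher, 1 in the transcription list and 1 in the mRNA stability list, where 1.2% of all genes were lower and 1.66% higher. In that fit the median of the mRNA stability list was -0.10 and that of the synthetases -0.029.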

How the data were processed

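Poly-A selected RNA of BAT was sequenced from 4 control mice and 4 Ox1RΔSERT mice as stranded libraries. Per the study's methods, the authors ran the nf-core/rnaseq pipeline 1.4 with Salmon 0.14.1 for quantification, and the submitters' processing notes also name STAR and DESeq2 1.26.0. The deposited files hold Salmon's estimated counts of each gene, on which the authors did no normalization. The deposited TPM values were scaled by the authors for transcript length and sum to the same total in each mouse. GRCm38 was named as the reference, while the annotation release and the strand setting of the counting are not given in the sources used here. Read sharing between overlapping genes and near-identical copies was settled by Salmon's model, so that 11 of the 37 members had counts that were not whole.

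Members, names and positions came from GENCODE M21 on GRCm38, which named 44118 of 44674 genes (98.8%). Nuclear copies were found with BLAST 2.17.0 among its transcripts. Estimated counts were rounded and tested in R 4.3.3 with edgeR 4.0.16 (filterByExpr, TMM, glmQLFit and glmQLFTest, two-sided, Benjamini-Hochberg over all 14489 tested genes, threshold 0.05), with all 8 mice and no covariate. The common dispersion was 0.0988. SE were taken from the F statistic. Alternatives were DESeq2 1.42.0, the tool of the study, limma 3.58.1 (voom, and limma-trend on log2(TPM + 1) or log2(TPM + 0.1)), other scalings and filters, copies added to their mitochondrial genes, and mice left out. Total counts before the filter were between 35852708 and 50063339 per mouse. The scripts were tested on simulated data. p-values refer to the spread between these 8 mice.

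Named were all mRNAs and rRNAs, the tRNAs that passed the filter, the 5 nuclear copies with the highest counts, and from each nuclear list up to 2 genes per direction with the lowest unadjusted p under 0.05. The members, lists and tests were chosen with earlier results of these data known. Prorp, Ndufb1-ps, Atp5md and Atp5pb of these lists were not found by symbol.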

Additional observations from a re-analysis of the deposited data

Results flagged for a closer look

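In 10 of 58 groups of 4 mice, 1 mouse stood so far from the others that the gap to its nearest neighbour took up more of the whole range than the 95% critical value of Dixon's test allows. By chance about 1 in 20 groups is marked in this way, and the members share their libraries, so these marks are not independent of each other.

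Of the marks, 7 concerned Ox1RΔSERT mouse 11243, which was high against the other 3 of its group. Its normalized value was 60560 for mt-Co2 against 33980 to 36750, 62760 for mt-Atp6 against 37050 to 39030, and 11880 for mt-Atp8 against 7269 to 7952. For mt-Nd6 it was 470.4 against 220.2 to 259.9, for mt-Tl1 18.04 against 9.251 to 10.39, and for mt-Ti 7.053 against 3.62 to 3.794. The share of counts on the 22 tRNAs was 0.003338% in this mouse against 0.002312% to 0.002483%.

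Control mouse 11253 was high in mt-Cytb, with a normalized value of 60720 against 49420 to 50810 in the other control mice, and in the share of counts on the 13 mRNAs, 44.66% against 39.14% to 39.51%. In control mouse 10684 the count of mt-Nd4l was 0.1487 of that of mt-Nd4, against 0.1295 to 0.1318 in the other control mice.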

How the results depend on the processing

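Of 659 log2 fold changes of single members under 30 alternatives, 601 kept their sign and their side of the adjusted threshold, 14 passed it and 44 changed sign. Among the mRNAs only mt-Co1, mt-Co3 and mt-Nd3 changed sign, relative to mitochondrial mRNA or, for the first 2, in TPM. The median of all genes lay at 0.22 under total counts, at 0.23 in limma-trend on log2(TPM + 1), at 0.32 with 0.1 as the pseudocount, and at 0.45 relative to mitochondrial mRNA. Measured from that median, the 13 mRNAs had medians of -0.47, -0.37, -0.46 and -0.49, and mt-Nd5 was at -0.68, -0.57, -0.65 and -0.71.

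In limma-trend on log2(TPM + 1) the members above 0 were mt-Rnr1 at 0.00654, mt-Rnr2 at 0.0317, mt-Tl1 at 0.0204, mt-Ti at 0.0874, mt-Tw at 0.0886, mt-Co1 at 0.0114, mt-Ts1 at 0.223, mt-Co3 at 0.0225 and mt-Te at 0.0588. On log2(TPM + 0.1) the same members had 0.00656, 0.0318, 0.0205, 0.0878, 0.0890, 0.0114, 0.225, 0.0225 and 0.0596. Relative to mitochondrial mRNA the values above 0 were 0.119 for mt-Tl1, 0.195 for mt-Ti, 0.227 for mt-Tw, 0.0969 for mt-Co1, 0.447 for mt-Ts1, 0.122 for mt-Co3, 0.0300 for mt-Nd3 and 0.186 for mt-Te. Under total counts they were 0.00048 for mt-Ti, 0.0365 for mt-Tw and 0.207 for mt-Ts1. Without mice 11601 and 11708 they were 0.0156, 0.0766, 0.144 and 0.108 for mt-Tl1, mt-Ti, mt-Ts1 and mt-Te in edgeR and 0.0161, 0.0764, 0.142 and 0.106 in DESeq2. mt-Ts1 was also above 0 without control mouse 11563 (0.121 in edgeR, 0.128 in DESeq2), control mouse 11560 (0.129 and 0.122) or Ox1RΔSERT mouse 11708 (0.189 and 0.183), with a range of -0.16 to 0.19 over the edgeR fits without 1 mouse, and mt-Tw without Ox1RΔSERT mouse 11613 (0.0172 in edgeR). The cause was not tested.

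Over all genes, edgeR called 0 in each alternative and DESeq2 called 265, 17 to 1516 with 1 mouse left out and 8 without mice 11601 and 11708. DESeq2 called 1 member, 0 to 13 with 1 mouse left out and 0 without those 2 mice. The 13 were called without mouse 11243. Members lower at an unadjusted p under 0.05 were 2 in edgeR, 9 in DESeq2, 8 in limma voom, 1 in limma-trend on either TPM scale and 0 relative to mitochondrial mRNA, where 4.96%, 4.83%, 5.17%, 0.228% to 0.242% and 0.124% of all genes were lower. With 1 mouse left out they were 1 to 15 in edgeR and 3 to 15 in DESeq2, and without mice 11601 and 11708 they were 1 in both. The 15 were seen without mouse 11243, where 8.5% of all genes were lower in edgeR and 7.76% in DESeq2. Over the fits without 1 mouse these shares were 2.02% to 8.5% and 1.76% to 7.76%, and without mice 11601 and 11708 they were 1.2% and 1.0%. The adjusted p of mt-Nd5 was 0.1185 to 0.9959 over the edgeR fits and 3.906e-06 to 0.3202 in DESeq2 with 1 mouse left out.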

Other observations

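The 2 nuclear-retained RNAs that were listed with the cell markers, Malat1 and Neat1, summed to normalized values of 421 to 582 in control mice and to 404 to 859 in Ox1RΔSERT mice, with mouse 11708 the highest. The count of mt-Nd6 was 0.0222 to 0.0310 of that of mt-Nd5, the gene that lies opposite its end, and it was highest in Ox1RΔSERT mouse 11243. The count of mt-Nd5 was 0.128 to 0.160 of that of mt-Co1 in Ox1RΔSERT mice and 0.179 to 0.212 in control mice, and the groups did not overlap in this ratio. With mt-Cytb in place of mt-Co1 they did, at 0.252 to 0.343 against 0.330 to 0.356.

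Gm10925, identical to mt-Atp6 over 678 bases, was chosen for mention after its values were seen. It had 0 counts in control mouse 11563 and up to 1059 counts in the other mice, while mt-Atp6 itself had 1738682 to 2874433.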
